A study of Mus musculus with 12 samples.

Results

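Loxl1, Fbln1 and Timp2 are 3 genes of the extracellular matrix whose mRNA moved with activin in cultured mouse granulosa cells, Loxl1 and Fbln1 upward and Timp2 downward. They were picked by name for that measured pattern, out of 8131 genes that carry a name on these arrays, so their levels and differences are a description and carry no p-value. Granulosa cells surround the egg in an ovarian follicle and make steroid hormones. Primary cultures of cells pooled from 14 to 20 ovaries of immature mice aged 21 to 23 days were given either PBS as the vehicle, or activin A alone, or both activin A and follistatin, for 24 h. Activin A belongs to the transforming growth factor beta family of secreted ligands, and follistatin binds activin outside the cell and blocks it. The whole experiment was done 4 times and each experiment gave 1 array per treatment, so there are 12 Illumina bead arrays with 4 per treatment. Strain, genotype and the activin dose were not given in the sources used here.

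Elastic fibres are built from elastin laid down on microfibrils of fibrillin, with fibulins and EMILIN proteins at their surface. Enzymes of the lysyl oxidase family cross-link elastin and collagen, and LOXL1, the product of Loxl1, is the member known in mice for the upkeep of elastic fibres. Fibulin-1, made from Fbln1, is a calcium-binding secreted glycoprotein of elastic fibres and basement membranes that binds fibronectin, laminin and nidogen. TIMP2, made from Timp2, inhibits matrix metalloproteinases and also takes part in the activation of MMP2 at the cell surface together with MMP14. A growing follicle enlarges inside a basement membrane that its granulosa cells help to make, and this matrix is broken down and rebuilt at ovulation.

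On mouse assembly GRCm38.p6, Loxl1 lies on chromosome 9 (58287723 to 58313212), Fbln1 on chromosome 15 (85205949 to 85286294) and Timp2 on chromosome 11 (118301061 to 118355411). RefSeq promoter sequences were matched for Fbln1 and Timp2, which moved in opposite directions with activin. The 250 bases before the start of each are shown on the gene's own strand, chr15:85205699-85205948 on the plus strand for Fbln1 and chr11:118355412-118355661 on the minus strand for Timp2. Capitals mark CAGAC or its reverse complement GTCTG, the short core that Smad proteins, the transcription factors of the activin pathway, are known to bind.
Fbln1: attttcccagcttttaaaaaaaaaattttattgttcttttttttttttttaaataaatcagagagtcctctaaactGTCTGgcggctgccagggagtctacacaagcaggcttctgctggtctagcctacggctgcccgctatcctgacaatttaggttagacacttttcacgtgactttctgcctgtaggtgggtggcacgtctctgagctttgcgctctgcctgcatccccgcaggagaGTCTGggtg
Timp2: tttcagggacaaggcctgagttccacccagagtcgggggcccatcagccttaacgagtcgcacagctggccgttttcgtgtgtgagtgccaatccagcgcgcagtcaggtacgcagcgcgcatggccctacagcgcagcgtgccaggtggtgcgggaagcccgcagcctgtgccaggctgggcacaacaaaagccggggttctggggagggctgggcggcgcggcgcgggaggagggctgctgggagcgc
The Fbln1 window holds 2 matches, 174 and 9 bases before the start, and the Timp2 window holds 0. Fbln1 had 2 promoter windows, and only the 1 with the lower start coordinate, shown above, was searched. Of 32851 mouse promoter windows of the same length, 42.2% hold at least 1 match on either strand. The share with 2 or more, the count of Fbln1, was not determined, and 2.32% hold 3 or more, which neither window does. The GC box GGGCGG, searched on both strands, was found in the Timp2 window at 37 bases before the start and not in that of Fbln1, and 32.7% of windows hold it. TATAAA was found in neither, against 12.4% of windows. GC content was 46.4% for Fbln1 and 68.0% for Timp2, where the median window has 52.4%. These matches describe the letters of the windows, and no binding was measured.

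Values are array signals on a log2-like scale that runs from 6.75 to 16.2, normalized between arrays by the authors, with array medians of 7.17 to 7.18. Background was set at 7.31, the mean of the brightest control spot, which the mean of 31.9% of the 46084 probes exceeded. Background was not subtracted, so differences near 7.31 understate the change. The 12 arrays correlated with each other at 0.967 to 0.994. Of 14 granulosa markers, 3 had a named probe: Wt1, Gata4 and Fst, all above background, and Fst itself responds to activin. Among macrophage markers, Ptprc, Csf1r, Cd68 and Itgam were at or below background and Lyz2 was at 7.37. Each gene was read from the brightest probe that carries its gene number, a reading of the probe identifiers that the files do not state.

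Loxl1 was the member with the larger rise. In experiments 1 to 4 its signal was 8.09, 8.42, 8.49 and 8.22 with PBS. With activin it was 9.64, 10.19, 10.49 and 9.48. With activin plus follistatin it was 7.82, 8.10, 8.06 and 7.93. Every activin array lay above every other array, while the PBS and activin plus follistatin arrays overlapped by a narrow margin. The activin mean exceeded the PBS mean by 1.65 ± 0.19 (SE, n = 4 arrays per group, 95% interval 1.23 to 2.06), which is 3.13-fold on a plain log2 reading. With activin plus follistatin the mean was 0.32 below PBS (difference -0.32 ± 0.19, interval -0.74 to 0.09). The PBS and activin plus follistatin means lie close to background, and after linear subtraction of the background these differences became 2.41 and -0.75. In bulk RNA, more or fewer cells of a type cannot be told apart from more or less RNA per cell.

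Fbln1 rose less from PBS to activin and stood lower when follistatin was added. Its signals with PBS were 9.95, 10.18, 10.57 and 9.99 in experiments 1 to 4. Its signals with activin were 10.81, 10.98, 11.55 and 10.81. Its signals with activin plus follistatin were 9.14, 9.51, 9.62 and 8.92. The 3 groups did not overlap, with activin highest, PBS between and activin plus follistatin lowest. The difference from PBS was 0.87 ± 0.20 with activin, 1.82-fold, and -0.87 ± 0.20 with activin plus follistatin, 1.83-fold lower. These comparisons share the PBS arrays, so an error in the PBS mean would move both. Activin against activin plus follistatin gave 1.74 ± 0.20 (interval 1.30 to 2.18).

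A further probe with the Fbln1 gene number, of lower signal, moved in the same directions by less. It read 8.46 ± 0.26 (SD, n = 4) with PBS, 8.88 ± 0.48 with activin and 8.01 ± 0.20 with activin plus follistatin. Its activin and PBS arrays overlapped, and the difference was 0.42 ± 0.21 (SE). Activin against activin plus follistatin gave 0.87 ± 0.21 with no overlap. In experiment 4 its activin array was 0.09 above PBS, while the brighter probe was 0.82 above. Which Fbln1 transcripts either probe reads was not given in the sources used here.

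Timp2 ran the other way. With PBS it gave 11.73, 11.72, 11.72 and 11.64 in experiments 1 to 4, an SD of 0.04. With activin it gave 10.38, 10.40, 10.72 and 9.97. With activin plus follistatin it gave 12.09, 12.04, 12.35 and 12.51. All activin arrays lay below all PBS arrays, and all activin plus follistatin arrays lay above them. The difference from PBS was -1.34 ± 0.14 with activin, 2.53-fold lower, and 0.54 ± 0.14 with activin plus follistatin, 1.45-fold higher. Activin stood below activin plus follistatin by 1.88 on the log2 scale (difference -1.88 ± 0.14, interval -2.19 to -1.57).

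**Figure D1:**
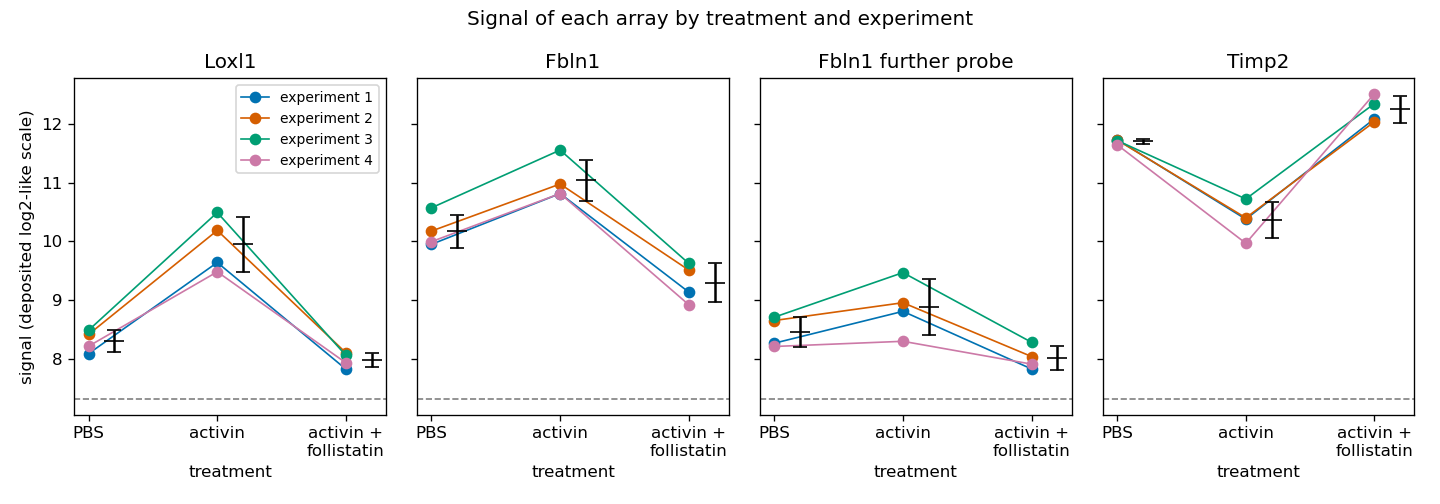
Signal on the deposited log2-like scale (y axis) by treatment (x axis) for the probes of Loxl1, Fbln1 (brightest and further probe) and Timp2. Coloured points and lines are the 4 experiments, black bars are the mean and SD of 4 arrays, and the dashed line is background (7.31). Loxl1 and Fbln1 peak with activin, and Timp2 has its lowest values there.

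Read over all probes, the limma fit called 3 of the 3 genes for activin against PBS at an adjusted p below 0.05, where 2.91% of all probes were called, 1.65% higher and 1.26% lower. For activin against activin plus follistatin it called 3 of 3, where 7.15% of all probes were called, 3.65% higher and 3.50% lower. For activin plus follistatin against PBS it called 0 of 3, where 0.178% of all probes were called, 0.0629% higher and 0.115% lower, and 3304 had an unadjusted p below 0.05. Blocking on experiment gave 3 of 3, 3 of 3 and 1 of 3, the last being Fbln1, where the block called 6.12%, 11.0% and 1.21% of all probes. Since the genes were chosen with these differences known, nothing is read from these counts.

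Within single experiments the directions of all 3 genes held in each of the 4. Activin minus PBS lay between 1.27 and 2.00 for Loxl1, between 0.80 and 0.98 for Fbln1 and between -1.68 and -0.99 for Timp2. Activin plus follistatin minus PBS lay between -0.43 and -0.26 for Loxl1, between -1.07 and -0.66 for Fbln1 and between 0.31 and 0.87 for Timp2. The brightest Fbln1 probe thus had a spread of 0.08 (SD over 4 experiments) in its activin difference, against 0.31 for Loxl1 and 0.28 for Timp2. The further Fbln1 probe had a spread of 0.29, with activin differences from 0.09 to 0.76. Experiment 4 had the smallest activin rise of Loxl1 and the deepest activin fall of Timp2.

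**Figure D2:**
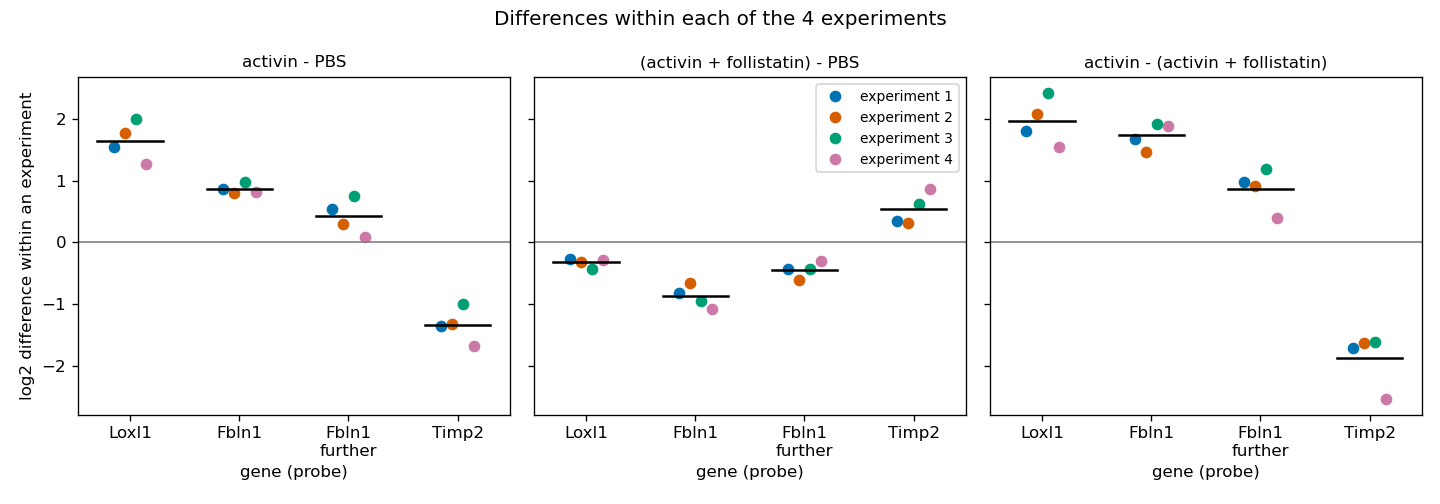
Log2 differences within each experiment (y axis) for each probe (x axis) in the 3 comparisons. Coloured points are the 4 experiments and black lines their mean. Loxl1 and Fbln1 lie above 0 for activin minus PBS and below 0 for activin plus follistatin minus PBS, and Timp2 lies on the opposite sides.

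The genes also differed between experiments, to unequal degrees. Experiment accounted for 12.1% of the variance of Fbln1 and treatment for 86.7%, and for its further probe these shares were 31.5% and 59.9%. For Loxl1 these shares were 5.80% and 91.7%, and for Timp2 1.23% and 94.4%. The median probe above background had 29.7% for experiment and 28.3% for treatment. Experiment 3 had the highest mean of its 3 arrays for all 3 genes, at 9.01 for Loxl1, 10.6 for Fbln1 and 11.6 for Timp2. Across the 12 arrays Loxl1 and Fbln1 had r = 0.912, and r = 0.772 after the group means were removed. Timp2 had r = -0.879 with Loxl1 over the 12 arrays and r = 0.636 after group means were removed. Timp2 had r = -0.853 with Fbln1 over the 12 arrays and r = 0.296 after group means were removed. These values describe arrays that share 4 experiments, and they carry no p-value.

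Among other genes listed here with elastic fibres, Emilin2 rose with activin as Loxl1 and Fbln1 did, and Col8a1 fell. Most did not pass the test against PBS in the fit without the experiment as a block, while more passed with it. The list was set with earlier results of these data known, so its counts are a description. Of 31 genes listed, 12 had a named probe and 10 of these were above background. With activin against PBS, where 2.91% of all probes were called, 1 rose and 1 fell, with a median difference of -0.13 (all probes, -0.0001). With activin against activin plus follistatin, where 7.15% were called, 1 was higher and 5 were lower, with a median of -0.25. With activin plus follistatin against PBS, where 0.178% were called, 1 was higher and 0 lower, with a median of 0.09. With the experiment as a block these counts became 1 higher and 5 lower, 1 higher and 6 lower, and 2 higher and 0 lower. The block called 6.12%, 11.0% and 1.21% of all probes in that order. Eln, the gene of elastin itself, was close to background in every group, at 7.25 to 7.45, and its difference of 0.03 ± 0.04 with activin did not pass.

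The gene that rose was Emilin2, a glycoprotein of the EMILIN family found with elastic fibres. Its signals were 7.33, 7.36, 7.42 and 7.23 with PBS and 8.91, 8.32, 8.97 and 8.50 with activin. With activin plus follistatin they were 7.07, 7.01, 7.08 and 7.06. It was above background by a clear margin with activin alone, and the activin arrays did not overlap with those of either other group. The rise over PBS was 1.34 ± 0.12 (limma with Benjamini-Hochberg adjustment over all probes, adjusted p = 1.08e-04), and it is understated because PBS was at background.

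Fbln2, the gene of fibulin-2, differed in the direction opposite to Fbln1. It read 9.31, 9.27, 8.42 and 9.70 with PBS and 8.62, 8.09, 8.00 and 7.93 with activin. With activin plus follistatin it read 9.61, 9.72, 8.79 and 10.59. The lowest PBS array, that of experiment 3, was below the highest activin array, so these groups overlapped, while activin and activin plus follistatin did not. The difference between activin and activin plus follistatin was -1.52 ± 0.35 (limma, adjusted p = 0.0203). Against PBS the difference with activin was -1.02 ± 0.35, with an adjusted p of 0.211, and the fit that blocks on experiment called it (adjusted p = 0.0384). The call between activin and activin plus follistatin was lost without 1 of 4 arrays, those with activin in experiments 2, 3 and 4 and that with activin plus follistatin in experiment 2, at adjusted p of 0.0516 to 0.0551. It was also lost without 1 whole experiment in 3 of 4 cases (adjusted p up to 0.163).

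Ltbp1, whose protein stores latent transforming growth factor beta on microfibrils, was also lower with activin. Its signals were 9.50, 9.86, 10.50 and 9.61 with PBS, and 8.66, 9.06, 9.46 and 8.86 with activin. They were 10.06, 10.50, 11.11 and 10.07 with activin plus follistatin. No activin array reached the lowest PBS array, and in each group experiment 3 was highest. Activin against activin plus follistatin gave -1.43 ± 0.27 (limma, adjusted p = 0.00653, or 0.0787 without experiment 2). Against PBS, activin gave -0.86 ± 0.27 (adjusted p = 0.158) and activin plus follistatin 0.57 ± 0.27 (adjusted p = 0.725). With the experiment as a block both passed, with adjusted p of 3.07e-05 and 0.00230. The related Ltbp3 gave -0.13 ± 0.11 with activin against PBS and did not pass. Against activin plus follistatin it gave -0.27 ± 0.11 (limma, adjusted p = 0.236, or 0.0147 with the experiment as a block).

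The remaining called genes of the list were Col8a1, a chain of type VIII collagen, the small proteoglycan Dcn, and Adamtsl5, a secreted protein that binds microfibrils. Col8a1 fell by 2.94 on the log2 scale with activin (SE 0.10, limma, adjusted p = 1.11e-07) and was 0.73 ± 0.10 higher with activin plus follistatin than with PBS (adjusted p = 0.0157). The latter call was lost without 1 of 4 arrays, those with PBS in experiments 2 and 4 and those with activin plus follistatin in experiments 2 and 3, at adjusted p of 0.0516 to 0.0637, and without 1 whole experiment in 3 of 4 cases (up to 0.181). Dcn was lower with activin than with activin plus follistatin (-2.81 ± 0.54, adjusted p = 0.00662, or 0.0543 without experiment 1), and its PBS arrays ranged from 8.61 to 11.0. Adamtsl5, near background, differed by -0.29 ± 0.08 in that comparison (adjusted p = 0.0406), a call lost without any 1 of 8 of the 12 arrays, at adjusted p of 0.0558 to 0.120, and without 1 whole experiment in 3 of 4 cases (up to 0.236). Those 8 were the PBS arrays of experiments 2 and 3, the activin arrays of experiments 1, 2 and 4 and the activin plus follistatin arrays of experiments 1, 2 and 3. With activin against PBS, Dcn gave -1.77 ± 0.54 (limma, adjusted p = 0.139, or 0.00668 with the experiment as a block). Adamtsl5 gave -0.25 ± 0.08 there (adjusted p = 0.156, or 0.0218 with the block). Of the lysyl oxidases, Loxl2 had 8.97 ± 0.24 (SD, n = 4) with activin and 9.11 ± 0.25 with PBS. Its difference of -0.14 ± 0.18 did not pass, with a 95% interval of -0.54 to 0.26. Lox, Loxl3, Loxl4 and the fibrillin genes Fbn1 and Fbn2 were not analysed here.

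Among proteins that fibulin-1 binds or lies beside in basement membranes, 8 of 22 genes had a named probe and 6 were above background. With activin against PBS, where 2.91% of all probes were called, 0 were higher and 1 was lower, with a median of -0.08. With activin against activin plus follistatin, where 7.15% were called, 0 were higher and 1 lower. With the experiment as a block, which called 11.0% of all probes there, 2 were lower, and Lamb2 was added (adjusted p = 0.0260). The gene lower in both was Hspg2, which encodes the basement membrane proteoglycan perlecan. It read 10.4 ± 0.36 (SD, n = 4) with PBS, 9.59 ± 0.15 with activin and 10.5 ± 0.25 with activin plus follistatin. The activin difference from PBS was -0.80 ± 0.17 (limma, adjusted p = 0.0278). It was lost without the PBS array of experiment 2 or 4 or the activin array of experiment 1, 3 or 4, at adjusted p of 0.0568 to 0.0763, and without 1 whole experiment in 3 of 4 cases (up to 0.163). The laminin chain genes Lamb1 (-0.16 ± 0.18) and Lamb2 (-0.06 ± 0.09) and the agrin gene Agrn (-0.37 ± 0.22) did not pass. Vcan, the gene of the proteoglycan versican, had a difference of 0.60 ± 0.21 (adjusted p = 0.214), with activin signals of 8.18 and 8.40 in experiments 1 and 3 and of 7.45 and 7.23 in the other 2. Its means with PBS (7.22) and with activin plus follistatin (7.23) were below background. Adamts1, whose protease uses fibulin-1 as a cofactor, was at or below background.

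Mmp19, which encodes a secreted metalloproteinase, was the 1 gene listed around Timp2 that passed the test without the block. Of 47 metalloproteinases, inhibitors and partners listed, 19 had a named probe and 9 were above background. With activin against PBS 0 rose and 0 fell (limma), with a median difference of -0.01, where 2.91% of all probes were called and 5644 had an unadjusted p below 0.05. With the experiment as a block 1 was lower, Adamts4, an aggrecan-cleaving protease (adjusted p = 0.0455, difference -0.28 ± 0.18 without the block). With activin against activin plus follistatin, where 7.15% of all probes were called, 1 was lower, Mmp19 at -0.14 ± 0.03 (adjusted p = 0.0209), with signals of 7.24 to 7.52 that are close to background. That call was lost without the activin array of experiment 1 or 4, at adjusted p of 0.0514 and 0.0603, and without any 1 of the 4 experiments (up to 0.115). In that comparison the block also called Adamts2, a procollagen peptidase, higher (0.60 ± 0.44 without the block, adjusted p = 0.0131 with it).

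Timp3, a matrix-bound inhibitor of the same family as Timp2, gave 10.26, 8.95, 9.50 and 9.24 with PBS. It gave 11.42, 9.90, 10.29 and 9.27 with activin, and 9.97, 9.15, 9.73 and 9.38 with activin plus follistatin. The groups overlapped, and the PBS arrays alone spanned 8.95 to 10.26. The activin difference from PBS was 0.73 ± 0.41 and did not pass (limma, adjusted p = 0.558, or 0.0599 with the experiment as a block), with a 95% interval of -0.16 to 1.62. Reck, a membrane-bound metalloproteinase inhibitor, was close to background at 7.34 over all arrays. Timp1, Timp4, Mmp2 and Mmp14 were not analysed here.

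**Figure D3:**
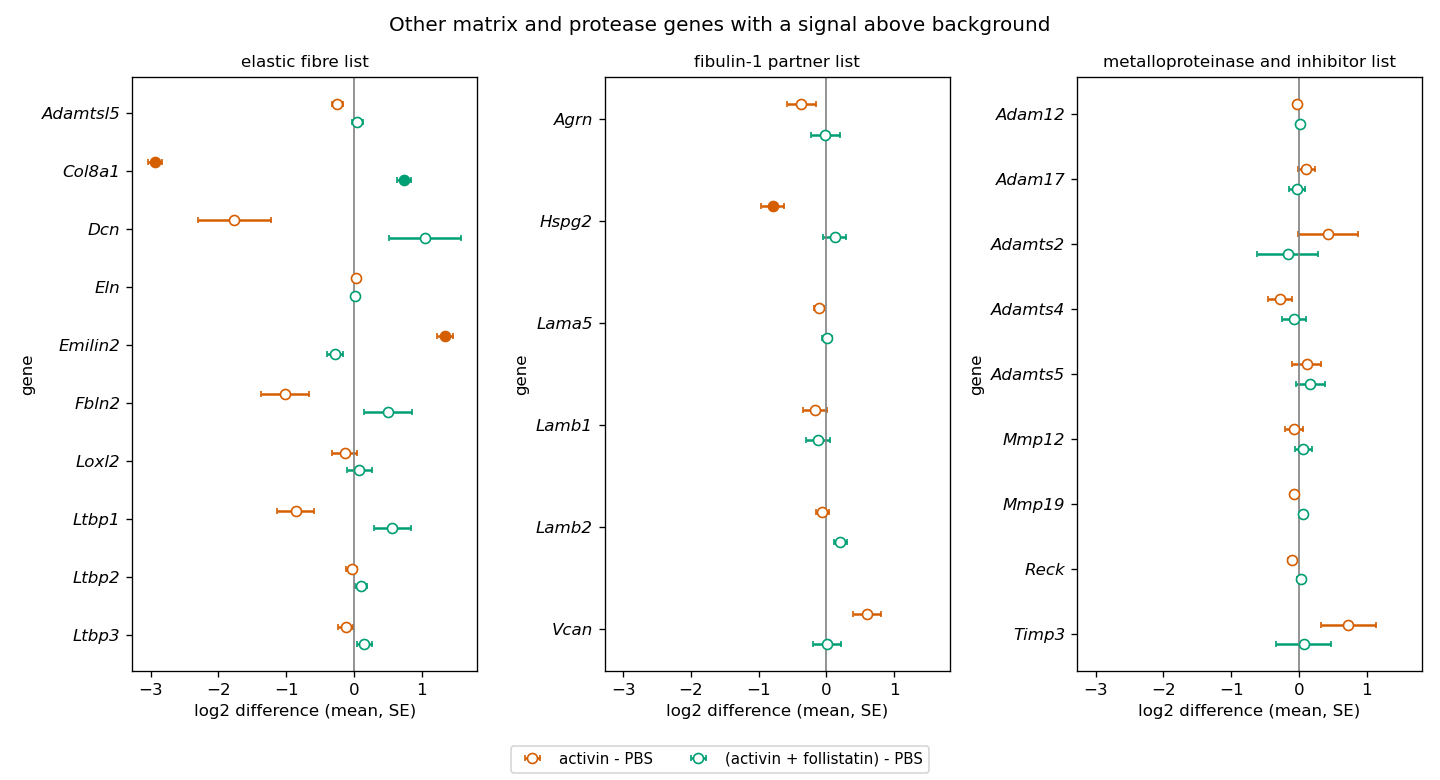
Log2 difference from PBS (x axis, mean and SE) of each other listed gene with a mean signal above background (y axis), with activin in orange and activin plus follistatin in green. Filled points passed the limma test at an adjusted p below 0.05. Emilin2 lies to the right with activin, and Col8a1 and Hspg2 to the left.

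The summed signal of stromal and theca cell markers was lowest on the activin arrays, mainly through Dcn and Col3a1. Of 12 such markers 7 had a named probe, and Col1a1, Col3a1 and Dcn were above background while Insl3, Col1a2, Nr2f2 and Ptch1 were not. Dcn is also on the elastic fibre list above. With activin 1 marker was lower than with PBS, where 2.91% of all probes were called. Against activin plus follistatin, where 7.15% were called, 2 markers were lower, and 0 were higher in either comparison. The summed linear signal of the markers was 1143 to 1225 on the activin arrays, 1441 to 3109 with PBS and 1995 to 4933 with activin plus follistatin. Most of that spread was Dcn, and without it the sums were 912 to 972 with activin, 1051 to 1198 with PBS and 1111 to 1201 with activin plus follistatin. Background was not subtracted from these sums. Of the 6 probes left without Dcn, 2 were above background, Col1a1 and Col3a1, and Col1a1 was close to it. The lower activin sum without Dcn was thus mainly that of Col3a1, at 7.89 with activin and 8.62 with PBS. Col3a1, a fibrillar collagen, gave -0.73 ± 0.12 with activin against PBS (limma, adjusted p = 0.00654), and Col1a1, at 7.44 over all arrays, gave -0.02 ± 0.07. The part of such cells in the values of Timp2, Fbln2 and Dcn was not tested. The granulosa marker Wt1 was lower with activin too, by -0.38 ± 0.22 against PBS (limma, adjusted p = 0.578, or 0.0196 with the experiment as a block). Against activin plus follistatin Wt1 gave -0.73 ± 0.22 (adjusted p = 0.0792, or 2.10e-04 with the block). Of the other granulosa markers, Gata4 was not called in any comparison and Fst rose with activin (2.52 ± 0.19 against PBS, adjusted p = 3.13e-05). Of 6 endothelial markers, Pecam1 and Robo4 had a probe, and their summed signal was 289 to 310 with activin, 307 to 362 with PBS and 374 to 440 with activin plus follistatin. Robo4 gave -0.80 ± 0.10 with activin against activin plus follistatin (limma, adjusted p = 2.93e-04), and Pecam1, close to background, gave -0.05 ± 0.04 (adjusted p = 0.642). Robo4 was itself below background with activin, at a mean of 7.11, and close to it with PBS (7.40), against 7.92 with activin plus follistatin. The endothelial sum with activin was thus that of 2 probes at about background, which was not subtracted. The smooth muscle marker Acta2 and the surface epithelium markers Krt8 and Krt18 were above background and were not called in any comparison. Of 8 oocyte markers 1 had a probe, Nlrp5. In experiment 1 it read 7.91 with PBS, 8.13 with activin and 8.54 with activin plus follistatin. In the other experiments it was below background, at up to 7.19, and it was not called in any comparison.

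Among 4070 other named genes above background, those whose 12 values were most like each member were found by Pearson's r. For Loxl1 these were Fam13a (r = 0.978), Tbl2 (0.974), Paqr6 (0.966) and the chaperone gene Hspa5 (0.965). Paqr6 read 7.19 with PBS and 7.26 with activin plus follistatin, both below background, and 8.01 with activin. Its mean over the 12 arrays was thus above background only through the activin arrays. For Fbln1 they were the uridine-cytidine kinase Uck1 (0.963), the cytokine gene Mif (0.962), Hsd11b2 (0.954), which inactivates glucocorticoids, and Tlcd2 (0.953). For Timp2 they were Wls (0.993), which carries Wnt proteins to the cell surface, the reticulon Rtn4 (0.980), the retinaldehyde dehydrogenase Aldh1a1 (0.971) and Pacs2 (0.971). Wls read 10.7 with PBS, 9.79 with activin and 11.1 with activin plus follistatin, in the same order as Timp2. These r describe treatment and experiment together.

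With group means removed, the genes most like the members were largely others. For Loxl1 they were Paqr6 (0.922), Dyrk1a (0.921), Fcgr3 (0.920) and Ppil6 (0.915). Paqr6 was in both lists, and nothing is read from that, as it was above background only through its activin arrays. Fcgr3 was close to background, at 7.31 with PBS, 7.50 with activin and 7.24 with activin plus follistatin. For Fbln1 they were Bean1 (0.946), Mxra8 (0.934), the secreted Wnt antagonist Sfrp4 (0.932) and Fam110a (0.920). For Timp2 they were Lrrc14 (0.954), the mannosidase Man1c1 (0.941), Ccdc47 (0.928) and the sorting receptor Sort1 (0.924). Over the 12 arrays with treatment included, Mxra8, a matrix-remodelling associated protein, had r = -0.298 with Fbln1, and it read 8.85 with activin and 9.32 with PBS.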

How the data were processed

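RNA of 12 cultures was amplified from 100 ng with a T7 method and hybridized with Cy3 label to Illumina Mouse-6 arrays, per the labels. The authors deposited signals that fit a log2 or similar scale and had normalized them between arrays. The method is not given in the sources used here; the submitters' processing notes name lumi 1.2.0 without its role. Values were used as deposited. Of 46116 probes, 32 control spots were left out and 46084 tested. The digits after scl0 or scl00 in a probe identifier were read as mouse Entrez gene numbers. Probes with a RefSeq transcript accession in their identifier were named by that accession. By these 2 routes 9841 probes of 8131 genes were named through a RefSeq table. The brightest probe by mean stood for a gene. Groups came from the labels. One limma 3.58.1 fit in R 4.3.3 took 3 group means over the 12 arrays, 2-sided, adjusted by Benjamini-Hochberg across every probe tested, with calls at an adjusted p below 0.05. The fit was tested on simulated data. A number marks a shared experiment per the design text, and same-numbered arrays correlated at 0.331 to 0.801 after removal of group means, other pairs at -0.632 to 0.406. Whether the 3 cultures of an experiment came from 1 pool of cells is not given in the sources used here. The number of arrays limits the precision. Alternatives were the block, quantile normalization, median centring, a filter on dim probes, linear background subtraction, all probes of a gene, and leaving out arrays or experiments. Genes named were the 3 members with their probes, listed genes called or above background, 4 genes most like each member by either r, and cell markers. The members and lists were chosen with earlier results of these data known, and promoter motifs after the values were seen.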

Additional observations from a re-analysis of the deposited data

How the results depend on the processing

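The directions of Loxl1, Fbln1 and Timp2 were the same under every alternative run. With the experiment as a replicate block the probes called were 2820 for activin against PBS, 557 for activin plus follistatin against PBS and 5087 for activin against activin plus follistatin, where the fit without it gave 1342, 82 and 3296. Of the calls on the 3 genes the block changed 1, that of Fbln1 for activin plus follistatin against PBS. The SEs given above for the 3 genes are those without the block. With it the SE of each difference was 0.12 for Loxl1, 0.07 for Fbln1 and 0.14 for Timp2. The block called 6 elastic fibre genes for activin against PBS, 2 for activin plus follistatin against PBS and 7 for activin against activin plus follistatin. It called 2 fibulin-1 partner genes for activin against activin plus follistatin. In the metalloproteinase list it called 1 for activin against PBS and 2 for activin against activin plus follistatin. With only probes above background tested, 132 probes were called for activin plus follistatin against PBS. Background subtraction gave Loxl1 2.41, -0.75 and 3.16 and Fbln1 0.97, -1.09 and 2.06 for the comparisons in that order, and the mean of both probes gave Fbln1 0.64, -0.66 and 1.30. The cause of these shifts was not tested.

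Without 1 array or 1 whole experiment, the probes called were 625 to 1356, 24 to 107 and 2091 to 3268 for the comparisons in that order. The lowest counts without 1 array were 888 (PBS array of experiment 3 left out) and, for activin plus follistatin against PBS, 47 (PBS array of experiment 2 or activin plus follistatin array of experiment 3 left out). The differences of Loxl1 were then 1.47 to 1.80, -0.39 to -0.26 and 1.79 to 2.13, those of Fbln1 0.70 to 1.00, -0.98 to -0.74 and 1.57 to 1.85, and those of Timp2 -1.46 to -1.20, 0.43 to 0.62 and -2.0 to -1.66. Elastic fibre genes called were 2 to 3, 0 to 1 and 3 to 6 in the same order. Fibulin-1 partner genes called were 0 to 1 for activin against PBS and 1 to 2 for activin against activin plus follistatin, and metalloproteinase genes 0 to 1 for the latter. Fewer samples entered each of these fits. None of the called listed genes changed direction in them, and Emilin2, Col8a1 against PBS or against activin plus follistatin with activin, and Hspg2 against activin plus follistatin lost no call.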
